A study of Mus musculus with 6 samples.

Results

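Ifih1, Tlr7 and Zbp1 encode 3 innate sensors of nucleic acid, and their transcripts were followed in OT-I cells with and without Themis. The genes were found by their symbols in a deposited table of 854 genes, and all 3 were present in each of its 6 libraries. They were picked with their values in the genotype comparison known, so those values are given as a description with no test. The table itself appears selected by fold change on the same libraries, since on the log2 scale no ratio of its mean counts lies from -0.94 to 1.06.

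OT-I cells are mouse CD8 T cells with a transgenic T-cell receptor for an ovalbumin peptide, here naive cells enriched from spleen and lymph nodes. One group was wild-type (WT, 3 libraries) and the other a conditional knockout of Themis (cKO, 3 libraries), a T-lineage adaptor that acts below the T-cell receptor. Both groups carried the OT-I receptor, and both were kept in IL-2 at 1 µg/ml for 3 days. The Cre line, the age of the mice and whether a library came from its own animal or culture are not given in the sources used here, so any spread between libraries may be technical. In bulk RNA of this kind, fewer cells of a type and less RNA per cell cannot be told apart.

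Sensors of this group tell foreign or misplaced RNA and DNA from the cell's own. IFIH1, also called MDA5, is a cytosolic helicase that forms filaments on long double-stranded RNA and signals through the mitochondrial adaptor MAVS. TLR7 sits in endosomes, binds single-stranded RNA and its breakdown products and signals through MYD88, and it is best known in plasmacytoid dendritic cells, B cells and macrophages. ZBP1 binds nucleic acid in the left-handed Z form and can engage the kinases RIPK1 and RIPK3, which lead to cell death through MLKL. The first 2 pathways end in type I interferon, and the genes for many sensors are themselves induced by interferon through a DNA element, the interferon-stimulated response element (ISRE), to which a complex holding STAT2 and IRF9 binds.

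RefSeq promoter windows on GRCm38.p6, from 250 bases before an annotated start to 50 bases after it, were searched for the ISRE core on both strands. The core is GAAA, any 2 bases and GAAA again, or TTTC, 2 bases and TTTC on the other strand. Of the 3 sensors and the 28 other sensing genes of the table described below, 23 matched an entry of the promoter table used here. Ifih1 was among the matches, and Tlr7 and Zbp1 were not. The core was found in 10 of the 23 genes (43.5%), in 75 of the 647 table genes with a window (11.6%) and in 1079 of all 27025 genes with one (3.99%), or 3.44% of all 32851 windows. The shorter form GAAANNGAA was found in 52.2% of the 23 genes, 17.0% of the table genes and 9.76% of all genes. The 23 genes, Ifih1 among them, come from lists chosen with earlier results of these data known. They also come from a table that appears selected by fold change, so their higher share is a description and no test. The windows below are examples, so that the Ifih1 element can be read beside those of related sensors and interferon-pathway genes also lower in cKO. The core was also found in Ifit3, Oas1a, Oas1g and Trim30a, and at another place in Ifit1, 104 bases before its start. Those windows are not shown. Each window is 30 bases, 5′ to 3′ along the gene, with the core in capitals.
Ifih1 (chr2:62646206-62646235, minus strand, core starts 32 bases after the RefSeq start): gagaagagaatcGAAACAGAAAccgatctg
Ddx58 (chr4:40239804-40239833, minus strand, 2 bases after): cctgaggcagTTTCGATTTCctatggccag
Eif2ak2 (chr17:78882535-78882564, minus strand, 18 bases after): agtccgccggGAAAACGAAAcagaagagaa
Oas3 (chr5:120777715-120777744, minus strand, 75 bases before): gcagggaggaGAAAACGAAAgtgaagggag
Ifit1 (chr19:34640794-34640823, plus strand, 85 bases before): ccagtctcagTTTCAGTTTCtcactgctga
Stat2 (chr10:128270266-128270295, plus strand, 222 bases before): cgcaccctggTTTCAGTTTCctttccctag

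The Ifih1 core read in the direction of the gene, as did those of Eif2ak2 and Oas3, while Ddx58, Ifit1 and Stat2 held it on the opposite strand. GENCODE vM21 starts Ifih1 44 bases downstream of RefSeq, which places the same element just before that start. The 250 bases before the RefSeq start of Ifih1 (chr2:62646256-62646505, minus strand) held no full core and 1 match to the shorter form, on the opposite strand and shown in capitals: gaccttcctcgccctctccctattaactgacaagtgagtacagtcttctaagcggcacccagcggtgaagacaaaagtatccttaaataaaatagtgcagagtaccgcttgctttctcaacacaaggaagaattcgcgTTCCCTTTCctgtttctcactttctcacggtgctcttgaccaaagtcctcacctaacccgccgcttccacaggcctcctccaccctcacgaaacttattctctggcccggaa. A match to letters is a description and does not show binding.

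Transcripts of all 3 sensors were lower in every cKO library than in any WT library. MDA5 showed the widest gap, with 11.8% of the WT level left in cKO, followed by TLR7 with 21.2% and ZBP1 with 31.9%. Levels are scaled counts, that is, the deposited read counts divided by a factor that evens out the libraries within a genotype, with both genotypes taken at equal depth. The sizes depend on that choice: scaling factors that centre the table on itself (TMM) gave log2 fold changes of -1.79 for Ifih1, -0.95 for Tlr7 and -0.35 for Zbp1, still lower in cKO, in place of the values below.

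Ifih1 (Gene ID 71586, minus strand of chromosome 2 from 62595618 to 62646255 in GRCm38.p6) had 2329, 2445 and 2544 scaled counts in WT replicates 1, 2 and 3 and 297, 289 and 278 in the cKO replicates. The libraries of each genotype lay close together, and the lowest WT library stood 7.84-fold above the highest cKO library. The means were 2440 ± 107 and 288 ± 9.83 (SD, n = 3 each), 8.47-fold lower in cKO, with a fitted log2 fold change of -3.08 (standard error 0.10). The coefficient of variation over the 3 cKO libraries was 3.41%, beside a counting error of 5.89%.

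Tlr7 (Gene ID 170743, chromosome X, 167303380 to 167330574, minus strand) had 1227, 1016 and 1480 scaled counts in WT replicates 1, 2 and 3 and 270, 249 and 269 in the cKO replicates. It was the least even of the 3 sensors in WT, where replicate 3 was highest and replicate 2 lowest, yet the genotypes did not overlap and the lowest WT library stood 3.76-fold above the highest cKO library. The means were 1241 ± 232 and 263 ± 11.9 (SD, n = 3 each), 4.72-fold lower in cKO, with a log2 fold change of -2.24 (standard error 0.15). The WT coefficient of variation of 18.7% was well above the counting error of 2.83%.

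Zbp1 (Gene ID 58203, chromosome 2, 173206612 to 173218959, minus strand) was the most abundant of the 3, with 10614, 10438 and 11955 scaled counts in WT replicates 1, 2 and 3 and 3867, 3578 and 3098 in the cKO replicates. It also kept the most RNA in cKO, and its lowest WT library stood 2.70-fold above its highest cKO library. The means were 11002 ± 830 and 3514 ± 389 (SD, n = 3 each), 3.13-fold lower in cKO, with a log2 fold change of -1.65 (standard error 0.09). Its WT level ranked 12 among the 854 genes of the table, against 109 for Ifih1 and 178 for Tlr7.

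**Figure D1:**
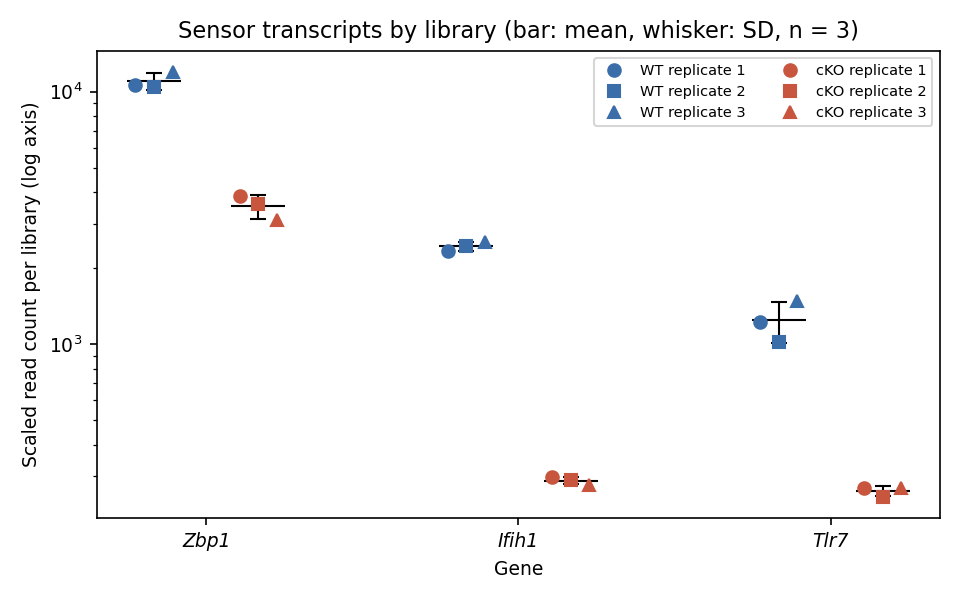
Scaled read counts of Zbp1, Ifih1 and Tlr7 in each library on a log axis, WT in blue and cKO in red, with a symbol for each replicate number; bars are means and whiskers are SD (n = 3). No cKO library reaches the lowest WT library, and the gap is widest for Ifih1, from 2440 to 288 scaled counts.

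Absence of overlap was no special property of these genes, because 99.5% of the 794 genes with enough counts to test had no overlap between the genotypes in one direction or the other, and 75.7% had none and were lower in cKO. By size of change, 74 of the 794 genes had a lower log2 fold change than Ifih1, 153 a lower one than Tlr7 and 295 a lower one than Zbp1. In the plot of the whole table Ifih1 and Tlr7 therefore lie deeper among the lower genes than Zbp1, which stands out by its level.

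**Figure D2:**
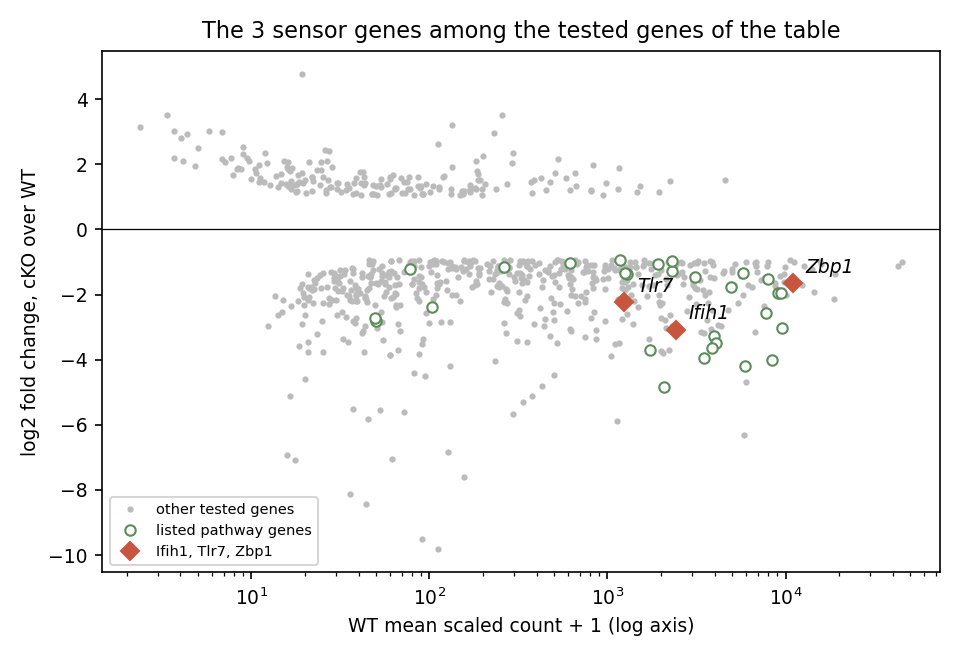
Log2 fold change of cKO over WT against the WT mean scaled count plus 1 (log axis) for the 794 tested genes, with the 3 sensors as red diamonds and the other listed sensing genes as open green circles. Zbp1 lies far to the right at -1.65, Ifih1 at -3.08 and Tlr7 at -2.24, and the band without genes around 0 is the table's empty fold interval.

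On a per-length scale Zbp1 stood highest in both genotypes. Levels are scaled counts per kilobase of GENCODE vM21 exons, 8165, 4082 and 3529 bases for Ifih1, Tlr7 and Zbp1. These lengths join all annotated exons of a gene and can exceed the transcripts present, which were not determined. With these lengths Tlr7 stood apart from Ifih1 only in cKO, and other lengths could change how the 2 compare within a genotype. In WT, Zbp1 stood at 3118 ± 235 per kilobase, above Tlr7 at 304 ± 56.9 and Ifih1 at 299 ± 13.2, and the last 2 did not differ beyond their spread. In cKO, Zbp1 stood at 996 ± 110, Tlr7 at 64.4 ± 2.92 and Ifih1 at 35.3 ± 1.20 per kilobase, and there the gap between Tlr7 and Ifih1 exceeded the spread of either. The ratio of 2 genes within a library does not depend on how libraries or genotypes are scaled. Zbp1 over Ifih1, per kilobase, was 10.5, 9.88 and 10.9 in WT replicates 1, 2 and 3 and 30.1, 28.6 and 25.8 in the cKO replicates. Ifih1 over Tlr7 was 0.949, 1.20 and 0.859 in WT and 0.550, 0.581 and 0.515 in cKO. Zbp1 over Tlr7 ranged from 9.34 to 11.9 in WT and from 13.3 to 16.6 in cKO. None of these ratios overlapped between the genotypes, and the balance among the sensors in cKO lay toward Zbp1 and away from Ifih1. The ratios restate the unequal fold changes of genes picked with those values known. How many other gene pairs of the table lack overlap was not computed.

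Within WT, replicate 3 had the highest level of all 3 sensors, as it had for 20 of 28 other sensing genes and for 43.7% of the 602 genes that were lower in cKO. Among the cKO libraries, replicate 3 had the lowest level of Ifih1 and Zbp1 and of 17 of the 28 genes, against 35.0% of the 602. The source of this library difference was not tested.

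The authors' deposited table gives smaller changes and much larger errors for the sensors than the fit to the 6 libraries. Its log2 fold changes were -2.62 for Ifih1, -1.78 for Tlr7 and -1.17 for Zbp1, with q-values of 0.00216, 0.0204 and 0.257 in the authors' deposited table, in which 67.6% of genes have a q-value under 0.05. Zbp1 therefore did not pass that limit in the deposited analysis, although its libraries did not overlap. The deposited log2 values and p-values imply standard errors of 0.67 for Ifih1, 0.58 for Tlr7 and 0.64 for Zbp1, if they come from a Wald test. These are 6.70, 3.74 and 6.73 times the errors of the fit. Over the 454 tested genes with a mean of at least 100 scaled counts, the median implied error was 0.35, the median error of the fit 0.15 and the median ratio 2.16. The ratio of Ifih1 exceeded that of 97.4% of those genes, that of Zbp1 97.6% and that of Tlr7 76.0%. The fitted log2 value minus that of the authors' deposited table was -0.46 for Ifih1, -0.46 for Tlr7 and -0.48 for Zbp1, against a median of -0.27 over the 367 of these genes that were lower in cKO. The sources used here do not say which samples and settings entered the deposited test, and the cause of the gap was not tested.

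**Figure D3:**
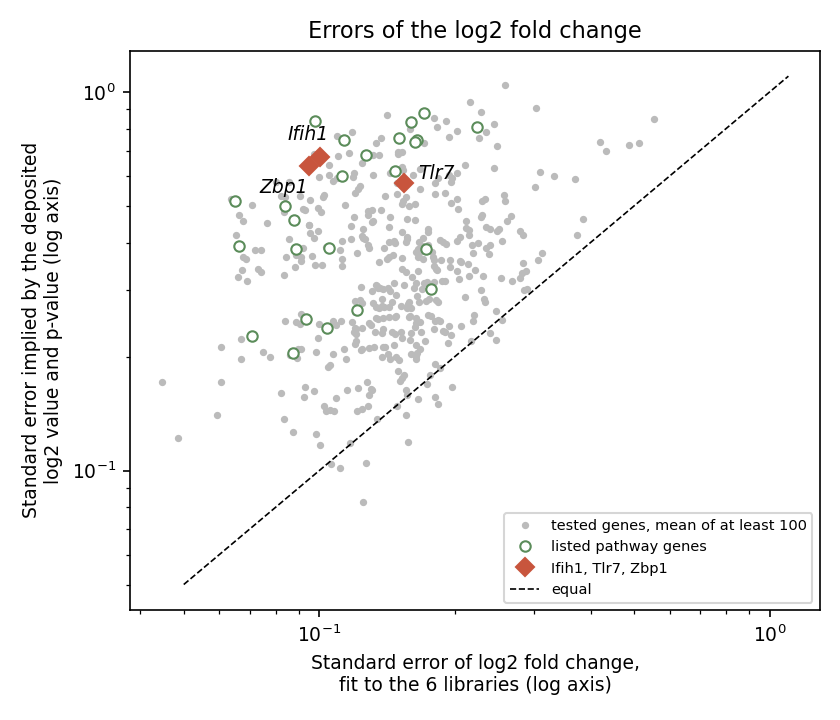
Standard error of the log2 fold change in the fit to the 6 libraries (x, log axis) against the error implied by the authors' deposited log2 value and p-value (y, log axis) for 454 genes, with the sensors as red diamonds, the listed sensing genes as open green circles and equality dashed. Ifih1 and Zbp1 lie far above the dashed line, at 0.10 against 0.67 and 0.09 against 0.64.

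Genes that work beside the 3 sensors were lower as well, wherever the table held them. Of 98 other genes on 6 lists of nucleic acid sensing, 28 were in the table, and all 28 passed as lower in cKO (quasi-likelihood test of edgeR, adjusted p under 0.05 by Benjamini-Hochberg), with a median log2 fold change of -1.96. Over all 794 genes tested, 75.8% were called lower, 24.2% were called higher and the median was -1.34. Every tested gene of this table passed (100%), so the counts say only which way the selected genes went. Adjusted p-values given below for single genes carry the same limit, since the genes appear selected by fold change on these libraries. Scalings that centre the table on itself moved the median of all genes up by 1.31. Under them 7 of the 28 turned sign, the calls of 10 ended, and 17 were still called lower. In the authors' deposited table the log2 fold changes of all 28 were below 0. There 24 of the 28 had a q-value under 0.05, against 67.6% of all its genes.

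**Figure D4:**
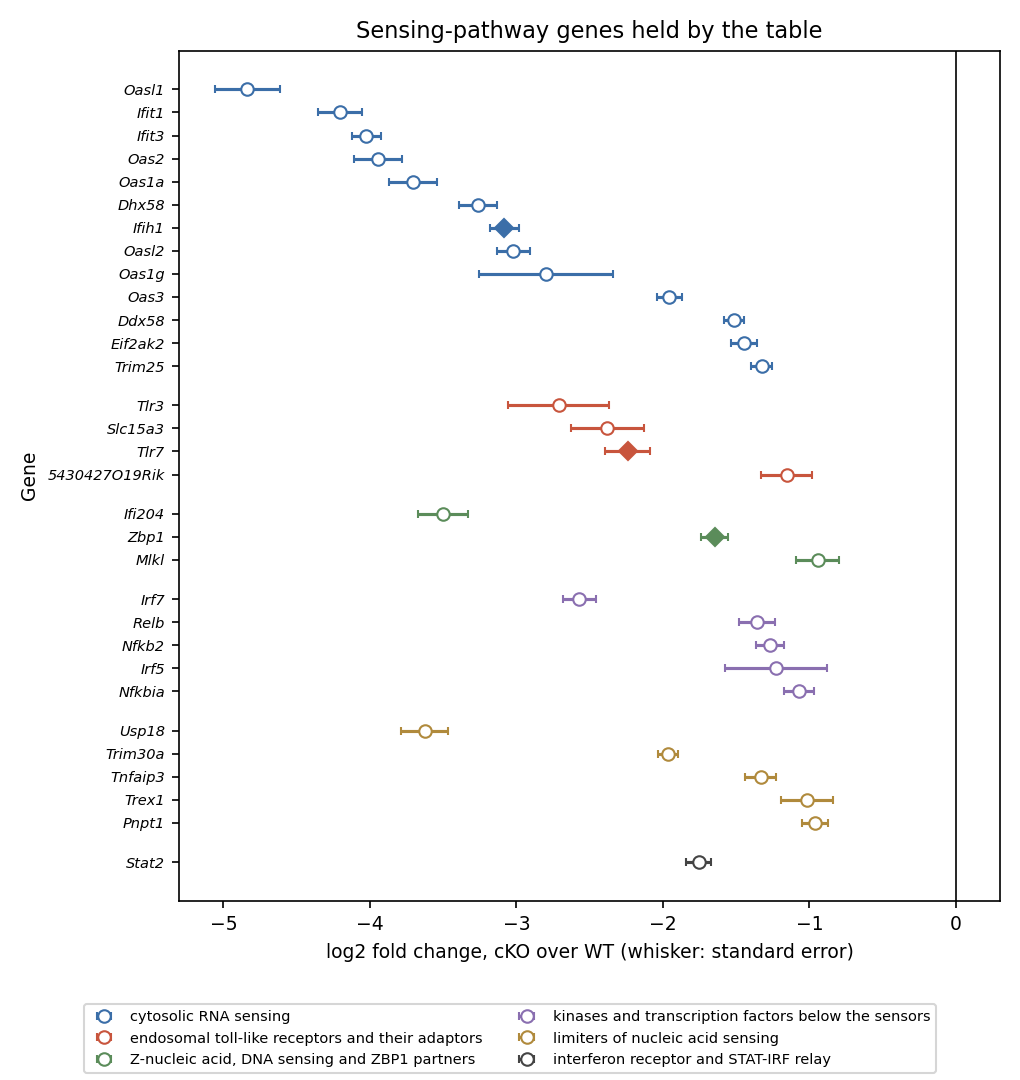
Log2 fold change (cKO over WT, whiskers for the standard error) of the sensing genes held by the table, grouped by list, with Ifih1, Tlr7 and Zbp1 as filled diamonds. All values lie below 0 with the genotypes at equal depth, from -4.84 (Oasl1) to -0.94 (Mlkl); under table-centred scaling 5430427O19Rik, Mlkl, Irf5, Nfkb2, Nfkbia, Trex1 and Pnpt1 turn sign.

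Around MDA5, 12 of 19 listed genes of cytosolic RNA sensing were in the table and all 12 fell, with a median log2 fold change of -3.14, and none turned sign under table-centred scaling, where the calls of Trim25 and Eif2ak2 ended. The 3 related RNA helicases differed in size. Dhx58, which encodes LGP2, a helicase without signalling domains that modulates MDA5, fell from 3986 ± 277 scaled counts to 416 ± 61.4, and its log2 fold change of -3.26 was near that of Ifih1. Ddx58, which encodes RIG-I, the sensor of short RNA with a 5′ triphosphate, had 8061, 8074 and 7674 scaled counts in WT and 2864, 2714 and 2758 in cKO, a smaller change of -1.51 (edgeR adjusted p = 2.67e-08). Under table-centred scaling Ddx58 stood at -0.22 (edgeR adjusted p of 0.0181 to 0.0207), and its q-value in the authors' deposited table was 0.0193. Trim25, a ubiquitin ligase known for its part in RIG-I signalling, stood at -1.33.

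The 2′-5′-oligoadenylate synthetases, which sense double-stranded RNA and activate RNase L, and their relatives spanned a wide range. Oasl1 had the lowest value at -4.84, followed by Oas2 at -3.94, Oas1a at -3.71, Oasl2 at -3.02, Oas1g at -2.80 and Oas3 at -1.96. Oas3 had 8978, 8916 and 9413 scaled counts in WT and 2516, 2430 and 2098 in cKO, and Oasl2 had 8916, 9368 and 10403 against 1316, 1215 and 1002. Neither gene overlapped between genotypes. Oas1a and Oas1g are close paralogs with counts that are not whole in every library, so reads may have been divided between them. Counts of Ddx58, Oas3, Oasl2, Ifit3, Ifi204 and Trim30a, among others, were also not whole in every library. Their reads may likewise have been divided with other genes. Ifit3, whose product acts with the RNA-binding IFIT1, had 7746, 8254 and 9335 scaled counts in WT and 512, 547 and 498 in cKO, and Eif2ak2, which encodes the RNA-activated kinase PKR, had a log2 fold change of -1.45.

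Beside TLR7, the endosomal list had 3 of 19 genes in the table, and all 3 fell. Tlr3, the endosomal receptor for double-stranded RNA, was scarce, with 36.0, 54.1 and 55.7 scaled counts in WT and 10.1, 4.92 and 7.07 in cKO (log2 fold change -2.71, edgeR adjusted p = 4.13e-05). Slc15a3, a lysosomal peptide and histidine transporter, had 85.8, 99.3 and 123 in WT and 15.1, 21.7 and 22.2 in cKO (-2.38). 5430427O19Rik, the gene of TASL, an adaptor that links endosomal receptors to IRF5, fell by 1.15 on the log2 scale and turned sign under table-centred scaling, and its q-value in the authors' deposited table was 0.131. All 3 genes were far below Tlr7 in level per kilobase, at 9.33, 18.7 and 69.6 in WT against 304.

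Beside ZBP1, the list of Z-form and DNA sensing had 2 of 14 genes in the table, and both fell. Ifi204, a PYHIN-family gene linked to DNA sensing, had 3869, 3745 and 4599 scaled counts in WT and 340, 287 and 451 in cKO, a log2 fold change of -3.50, larger in size than that of Zbp1. Mlkl, which carries out necroptosis below ZBP1 and RIPK3, had 1246, 965 and 1325 in WT and 676, 627 and 538 in cKO. Its change of -0.94 was the smallest of the 28, turned sign under table-centred scaling, and had a q-value of 0.777 in the authors' deposited table. Zbp1 and Mlkl were the 2 genes of this group with a deposited q-value above 0.05.

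Among the kinases and transcription factors below the sensors, 5 of 17 were in the table and all 5 fell, with a median of -1.27. Irf7, the interferon regulatory factor used by TLR7 and MDA5 to induce type I interferon, had 7163, 8031 and 8139 scaled counts in WT and 1417, 1408 and 1101 in cKO, a log2 fold change of -2.57 (edgeR adjusted p = 2.67e-08). The NF-kB genes moved less, with Relb at -1.36, Nfkb2 at -1.27 and the inhibitor Nfkbia at -1.07. Under table-centred scaling the calls of all 3 ended, and Nfkb2 and Nfkbia turned sign. The authors' deposited log2 values were -1.08 for Relb, -1.02 for Nfkb2 and -0.86 for Nfkbia, with q-values of 0.00124, 0.00113 and 0.00494. Irf5, a factor used by TLR7, was low, with means of 77.2 ± 15.2 and 33.0 ± 15.8 scaled counts (-1.23), and it also turned sign under that scaling. Its call ended as well when the adjustment covered the 16996 genes implied by the authors' deposited p-values and q-values (edgeR adjusted p = 0.133, against 0.0062 over the table).

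Genes that limit nucleic acid sensing were lower too, with 5 of 17 in the table and all 5 called, at a median of -1.33. Usp18, which removes ISG15 and dampens the interferon receptor, had 3599, 3426 and 4507 scaled counts in WT and 289, 374 and 270 in cKO (-3.63), and Trim30a had 9528, 9259 and 9653 against 2465, 2352 and 2470 (-1.96). Tnfaip3, which encodes the ubiquitin-editing enzyme A20, stood at -1.33, Trex1, a DNA exonuclease, at -1.02 and Pnpt1, a mitochondrial RNA-degrading enzyme, at -0.96. Under table-centred scaling the calls of Tnfaip3 and Trex1 ended, Trex1 turned sign, and Pnpt1 was called higher (edgeR adjusted p of 0.00782 to 0.00941). Of 12 genes of the interferon receptor and its STAT and IRF relay, only Stat2 was in the table, with 4711, 4970 and 5092 scaled counts in WT and 1558, 1490 and 1327 in cKO (-1.76). Listed genes outside the table were not analysed here.

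Over the 6 libraries, the genes most like each sensor in pattern were sought among 431 genes with a mean of at least 100 scaled counts, leaving out the sensors, predicted genes, Rik genes and pseudogenes. Likeness was the root mean square difference of log2(scaled count + 1), each gene centred on its own mean. It follows mostly the size of the genotype difference, since all genes share the same libraries. For Ifih1 the nearest were Cmpk2 (0.07), Oasl2 (0.10), Isg20 (0.11) and Plk2 (0.11), against a median distance of 0.91. For Tlr7 they were Sco1 (0.12), Ifi214 (0.12), Ifi209 (0.13) and Ifit1bl1 (0.14), against a median of 0.56. For Zbp1 they were Pml (0.06), Cd6 (0.06), Fam129a (0.07) and Tmem106a (0.07), against a median of 0.34. Cmpk2 had 3323, 3669 and 3514 scaled counts in WT and 417, 366 and 377 in cKO, and Pml had 9689, 9752 and 10091 against 3424, 3253 and 2951. The same distance was 0.46 between Ifih1 and Tlr7, 0.32 between Tlr7 and Zbp1 and 0.72 between Ifih1 and Zbp1.

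Markers of other cells that can carry these sensors were read from the same libraries. None of 11 listed CD8 T-cell markers was in the table, so the labelled cell type could not be checked here. Of 10 B-cell markers, Cd79b, Ms4a1 and Blk were in the table and all 3 were called higher. Their q-values in the authors' deposited table were 0.171, 0.108 and 0.0656, and Ms4a1 overlapped between the genotypes. The summed level of these 3 markers was 53.1 to 80.6 scaled counts in WT and 99.7 to 290 in cKO. The call of Ms4a1 (edgeR adjusted p = 0.0247) ended without WT replicate 1 (0.0560), WT replicate 2 (0.0676), cKO replicate 2 (0.0529) or cKO replicate 3 (0.122). Of 12 monocyte and macrophage markers, Mpeg1 and Ly6c2 were in the table and were called lower. Mpeg1 had 339 to 421 in WT and 44.3 to 62.6 in cKO (log2 fold change -2.91, deposited q-value 0.0301). Ly6c2 stood at -1.01, turning sign under table-centred scaling, with a deposited q-value of 0.320. The sum of Mpeg1 and Ly6c2 was 6575 to 10587 in WT and 3635 to 4243 in cKO. Of 10 plasmacytoid dendritic cell markers, Ccr9 was higher (2.95), and Bst2 (-1.28, turning sign under table-centred scaling) and Cox6a2 (-1.81, call ended there) were lower, with sums of 4724 to 4897 in WT and 3499 to 3871 in cKO. Bst2 is itself induced by interferon, and CD8 T cells can express Ly6c2 and Ccr9. Ly6c2 made up most of the monocyte and macrophage sum, with 6235 to 10166 scaled counts in WT. Bst2 made up most of the plasmacytoid sum in WT, with 4474 to 4640. Neither sum is therefore a measure of those cells. Of 12 conventional dendritic cell markers, Itgax and H2-Eb1 were higher and Batf3 and H2-Ab1 lower (the call of H2-Ab1 ended under table-centred scaling), with sums of 328 to 416 in WT and 289 to 296 in cKO. Of 10 NK-cell markers, 5 were in the table and all 5 rose, from 423 to 703 in WT to 1150 to 2054 in cKO. Over the 794 genes tested, 24.2% were called higher and 75.8% lower. Whether the rise of these markers reflects more NK cells was not tested. Adjusted over 16996 genes, the calls of Ms4a1, Blk, H2-Eb1 and Itgax ended. No marker in the table was at 0 in any library, and the part of these cells in the sensor values was not tested.

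The counts of Ifih1, Tlr7 and Zbp1 were whole numbers in all 6 libraries, as for 58.2% of the table's genes, and in GENCODE vM21 no other gene overlaps their exons. Summed over the table, counts were 946766 to 1054442 per WT library and 424605 to 437437 per cKO library. These sums cover selected genes and do not give the depth of sequencing, which is unknown.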

How the data were processed

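RNA of 3 WT and 3 Themis cKO libraries was sequenced. The tools RSEM 1.2.12, HISAT2 2.0.4, DESeq2 1.4.5 and Bowtie2 2.2.5 and the build GRCm38.p6 are named per the submitters' processing notes, with no role. The authors deposited 1 table with an estimated count per gene and library, and their own log2 fold change, p-value and q-value. The 3 sensors, the gene lists and the scaling were chosen with earlier results of these data known.

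Counts were rounded and fitted with edgeR 4.0.16 (R 4.3.3; quasi-likelihood test, genotype as the only term) on the 794 genes that passed its expression filter at a smallest count of 10, adjusted by Benjamini-Hochberg and called at 0.05. Scaling used median-of-ratios factors within each genotype (0.944 to 1.04), both genotypes at equal depth, since table-centred factors assume that most genes do not change. Standard errors are the size of the fold change over the root of F. The fit was tested on simulated counts with equal scaling factors, in which most genes did not change, so the scaling was not covered. The motif search was tested on a random sequence with planted cores. Named genes were the 3 sensors, listed genes in the table (values per library for up to 4 of each list with the highest mean) and the 4 genes most like each sensor. Also used were matplotlib 3.10.9, scipy 1.17.1, numpy 2.4.6, pandas 2.3.3, Python 3.11.15 and DESeq2 1.42.0. Alternatives covered scaling, test, filter, adjustment, threshold, a block by replicate number and leaving out single libraries. 1 listed marker is not reported here.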

Additional observations from a re-analysis of the deposited data

How the results depend on the processing

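The log2 fold changes rest on the genotypes having alike depths, and totals over the whole transcriptome were not used here. With TMM scaling over the table, Ifih1 stood at -1.79, Tlr7 at -0.95 and Zbp1 at -0.35, and with DESeq2 size factors at -1.79, -0.94 and -0.35. Table genes called lower then numbered 213 and 211 in place of 602, and the other sensing genes called lower 17 and 17 in place of 28, with 1 called higher (Pnpt1) under each. Without single libraries, Ifih1 ranged from -3.16 to -3.02, Tlr7 from -2.35 to -2.06 and Zbp1 from -1.72 to -1.55. Over those fits, table genes called higher ranged from 191 to 197 and lower from 601 to 616, and sensing genes called higher from 0 to 0 and lower from 28 to 28. Same-numbered libraries did not deviate together (correlations of -0.06, -0.06 and -0.16). With so few libraries per genotype this cannot show whether the numbers mark a shared culture or preparation. With the replicate block, Ifih1 stood at -3.08, Tlr7 at -2.22 and Zbp1 at -1.65, with 191 table genes higher and 602 lower, and 0 sensing genes higher and 28 lower. The looser motif GAAANNGAA was held by 8.56% of promoter windows, against 3.44%, and by 52.2% of the matched sensing genes, against 43.5%.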
